A study of Mus musculus with 2 samples.

Results

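The genes described here encode the T cell receptor complex and its coreceptors: the CD3 chains Cd3d, Cd3e and Cd3g, the zeta chain Cd247, the constant regions of the alpha chain (Trac) and of the beta chain (Trbc1 and Trbc2), and the coreceptors Cd4, Cd8a and Cd8b1. They were chosen by symbol, and all 10 were found once each among the 55357 genes of both count matrices. The list was proposed with the levels of these genes in these libraries in view, so every value below is a description and none is a test. The study profiled single cells of tumours grown from 4T1, a mouse triple-negative breast cancer line, in mice whose genotype is given as BALB/c. One group, AptCD4-LNT, received an agent of that name every 3 days in doses of 5000000, 4000000 and 3000000 cells and was sacrificed at 9 days, and the other, Untreated, received PBS. The title of the series gives the aim of the agent as mobilising and activating CD4+ T cells. The tissue of 3 tumours was mixed for sequencing, so each group is 1 library of mixed mice, the spread between mice cannot be seen, and differences between the libraries carry no replicate check and no p-value. The labels give the cell type as tumour cell for both libraries, whereas both held myeloid, stromal and lymphoid cells beside epithelial-like cells.

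An alpha-beta T cell displays a receptor of 1 rearranged alpha chain and 1 rearranged beta chain, which recognises peptide on MHC molecules. The receptor chains have short cytoplasmic tails and signal through the associated CD3 gamma, delta, epsilon and zeta chains, whose motifs are phosphorylated by the kinase Lck. CD4 and the CD8 alpha-beta dimer bind MHC class II and class I respectively and bring Lck to the receptor, and in tumours they mark helper or regulatory T cells and cytotoxic T cells. Natural killer (NK) cells, which lack a rearranged receptor, also use the zeta chain.

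Trbc1 and Trbc2 are close copies of each other, and most of their coding sequence cannot tell them apart. The part of this likeness in the values of either gene was not tested. In the GENCODE M21 annotation of GRCm38, both genes lie on the plus strand of chromosome 6 with 4 coding exons. Of the 518 coding bases compared, 23 differed, an identity of 95.6%. The first exon of 375 bases differed at 1 base and the following 143 coding bases at 22, an identity of 84.6%. The stretch that separates the genes is shown 5′ to 3′ with the differing bases in capitals. It covers coding positions 361 to 518, counted from the first base of the constant region and with introns left out. On the genome, with introns, this stretch spans chr6:41538578-41539662 in Trbc1 and chr6:41547090-41548178 in Trbc2. The counts came from a newer build, GRCm39, and how reads shared by both copies were split is not given in the sources used here.
Trbc1: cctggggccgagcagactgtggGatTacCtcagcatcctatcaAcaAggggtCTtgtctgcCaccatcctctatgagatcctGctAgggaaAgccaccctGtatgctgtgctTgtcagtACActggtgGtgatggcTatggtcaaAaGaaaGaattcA
Trbc2: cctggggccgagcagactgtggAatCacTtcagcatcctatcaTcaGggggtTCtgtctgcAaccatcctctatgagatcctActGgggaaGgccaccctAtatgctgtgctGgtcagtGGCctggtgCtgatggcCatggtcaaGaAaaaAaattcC

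The 3 CD3 genes lie side by side on chromosome 9, yet 1 of them, Cd3e, was the leading member of the list in fibroblast-like cells, so their promoters are shown for comparison. RefSeq promoter sequences, 250 bases before to 50 after the start on GRCm38.p6, matched 5 of the 10 genes by symbol (Cd3d, Cd3e, Cd3g, Cd247 and Cd8a). Cd3g has its promoter at chr9:44980382-44980681 on the minus strand, Cd3d at chr9:44981536-44981835 on the plus strand and Cd3e at chr9:45009562-45009861 on the minus strand. Capitals mark matches on either strand to a RUNX core, TGNGGT, and to an ETS core, GGAAG, the cores bound by 2 families of transcription factors that act in T cells.
Cd3g: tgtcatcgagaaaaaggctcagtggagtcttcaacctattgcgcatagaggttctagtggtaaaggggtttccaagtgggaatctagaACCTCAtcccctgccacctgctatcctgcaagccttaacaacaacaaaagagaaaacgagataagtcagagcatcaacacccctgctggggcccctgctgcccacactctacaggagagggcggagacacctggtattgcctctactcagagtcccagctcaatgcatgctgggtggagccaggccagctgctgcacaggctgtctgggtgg
Cd3d: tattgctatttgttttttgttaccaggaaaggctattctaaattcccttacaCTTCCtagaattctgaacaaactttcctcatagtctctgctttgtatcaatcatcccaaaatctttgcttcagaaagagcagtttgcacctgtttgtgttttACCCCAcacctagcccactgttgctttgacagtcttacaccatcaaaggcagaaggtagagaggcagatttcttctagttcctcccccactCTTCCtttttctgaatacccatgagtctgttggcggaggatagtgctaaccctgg
Cd3e: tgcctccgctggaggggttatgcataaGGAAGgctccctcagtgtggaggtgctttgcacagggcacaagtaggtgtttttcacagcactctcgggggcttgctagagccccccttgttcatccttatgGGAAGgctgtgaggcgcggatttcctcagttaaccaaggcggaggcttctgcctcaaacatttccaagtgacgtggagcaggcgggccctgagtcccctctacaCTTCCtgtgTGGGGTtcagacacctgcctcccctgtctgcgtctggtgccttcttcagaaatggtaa

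All 5 promoters held the RUNX core, which 45.8% of 32851 mouse promoters of the same length also hold. The ETS core, present in 71.4% of promoters, matched 3 times in Cd3e, 2 times in Cd3d, Cd247 and Cd8a, and 0 times in Cd3g. A TATAAA box, present in 13.6% of promoters, was in none of the 5. The letters AGATAA, the core bound by GATA factors, are in 11.2% of promoters and were found in Cd3g alone. A match to letters is no measured binding.

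The AptCD4-LNT library held 8931 barcodes and a median of 8612 unique molecular identifiers (UMIs, the counted molecules) per barcode, and the Untreated library 20040 barcodes and a median of 4640. The libraries shared 42 barcode sequences. After removal of 78 and 39 barcodes of low quality and of 200 and 1785 called doublets, 8653 and 18216 cells remained. Cells were clustered with the 10 genes and 267 other T cell receptor gene segments left out. The 10 genes thus did not make the classes in which they were measured. Clusters were named from markers outside the 10 genes, though the gamma-delta T markers included constant genes of the gamma and delta chains. T-like cells numbered 60 of the AptCD4-LNT and 467 of the Untreated cells, with median totals of 2650 and 1576 UMIs. All 13 T cell markers other than Thy1 were seen in T-like cells of both libraries, at 1912 and 2237 counts per 1000000 UMIs of the class (CPM), against 4.83 to 86.9 CPM in the classes outside the lymphoid clusters. These markers also named the class, so their level there is no separate support for the name. Further lymphoid cells were 40 and 10 NK-like cells, 10 and 6 gamma-delta T-like cells and 44 and 88 cells of unnamed sub-clusters. Among the unnamed were sub-clusters L9, L10 and L11, with 3, 4 and 2 AptCD4-LNT and 47, 9 and 17 Untreated cells, which scored highest for T markers but were kept out by naming thresholds set after the clusters were seen.

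Most transcripts of the 10 genes came from T-like cells, but the share differed by gene and library. The genes held 2980 UMIs in the AptCD4-LNT library, which is 30.1 CPM, and 13190 UMIs in the Untreated library, 100.5 CPM. T-like cells held 52.9% of these UMIs (exact 95% interval 51.1 to 54.7, here and below for counting error only) in the AptCD4-LNT library and 65.9% (65.1 to 66.7) in the Untreated library. Called doublets held 3.46% and 20.5%, epithelial-like cells 14.5% and 5.23%, and fibroblast-like cells 10.8% and 1.30%. Cells of all kinds are counted here, so the levels over whole libraries follow how many T cells were captured as well as the RNA in each.

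In the AptCD4-LNT library Cd8a, Cd8b1, Cd3g and Cd3d were the genes with the largest share in T-like cells, while Cd3e, Trbc1, Trac, Cd4 and Cd247 had most of their UMIs elsewhere. T-like cells held 90% of Cd8a UMIs in the AptCD4-LNT library and 71.0% in the Untreated library, where called doublets held a further 19.7%. For Cd3g, the gamma chain, the shares were 74.2% and 68.0%. For Cd3e, the epsilon chain, they were 31.2% and 67.7%, and 279 of 538 UMIs (51.9%) in the AptCD4-LNT library were in fibroblast-like cells, against 57 of 1698 in the Untreated library. For Trbc1 they were 35.2% and 41.3%, and epithelial-like cells held 45.6% and 31.0%. Trac was likewise divided, with 40.6% in T-like and 41.1% in epithelial-like cells of the AptCD4-LNT library, against 65.3% and 8.04% in the Untreated library. Only 42 and 66 UMIs of Cd4 were counted in the libraries as a whole, of which T-like cells held 11 (26.2%, 13.9 to 42.0) and 41 (62.1%, 49.3 to 73.8).

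**Figure D1:**
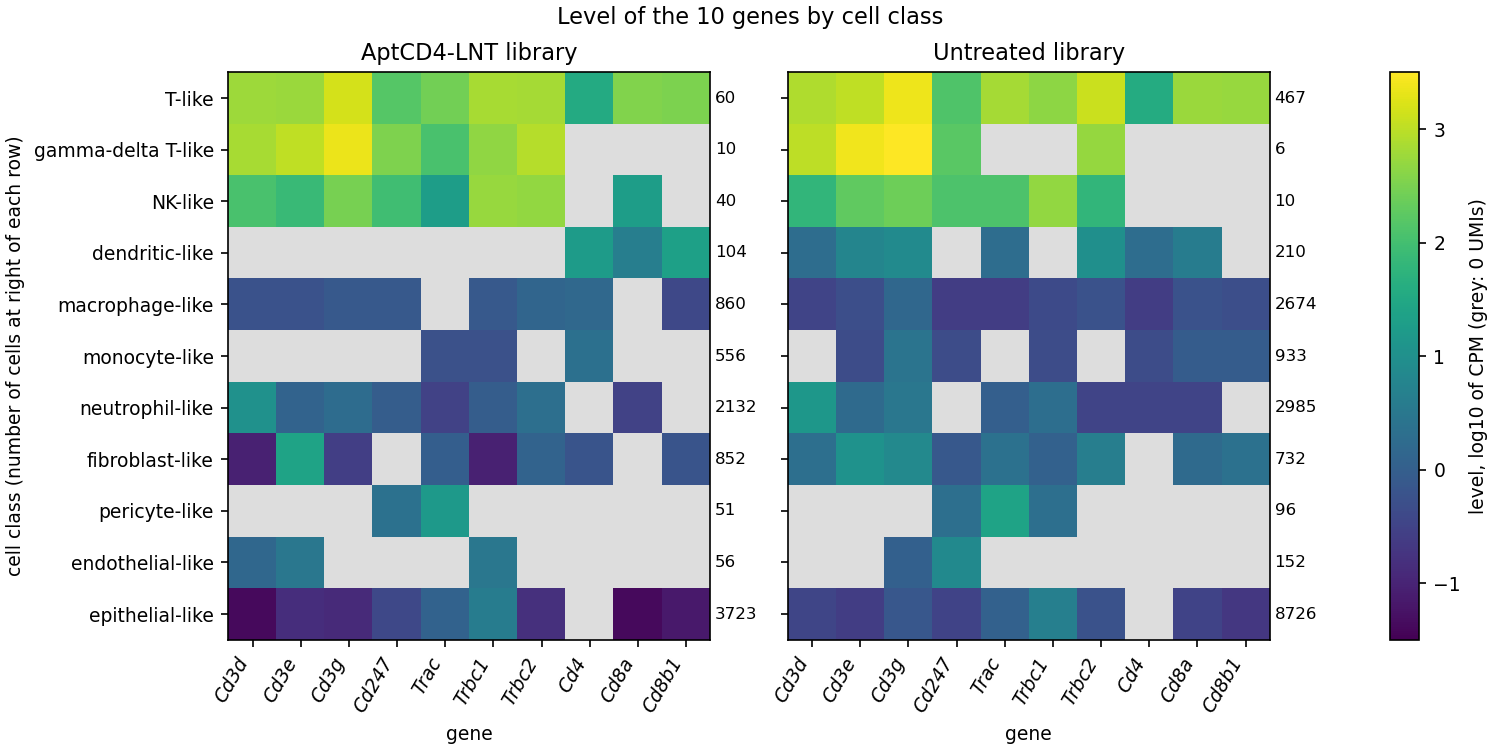
Level of each of the 10 genes (columns) in each cell class (rows) as log10 of CPM, for the AptCD4-LNT and Untreated libraries, with the number of cells at the right of each row and grey for 0 UMIs. T-like and gamma-delta T-like rows are high for the CD3 chains, while single squares stand out in other classes, among them Cd3e in fibroblast-like cells, Cd3d in neutrophil-like cells and Trac in pericyte-like cells.

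Within T-like cells the genes were detected together. At least 1 of the 10 genes had a UMI in 59 of 60 AptCD4-LNT cells (98.3%, 91.1 to 99.96) and in 465 of 467 Untreated cells (99.6%, 98.5 to 99.95). The median cell held 14.5 UMIs of the 10 genes in the AptCD4-LNT library (0 to 134) and 12 in the Untreated library (0 to 145), and 6 of the 10 genes in both. A CD3 chain together with a receptor constant chain was seen in 50 of 60 cells (83.3%, 71.5 to 91.7) and 400 of 467 cells (85.7%, 82.1 to 88.7). Cd3d, Cd3e and Cd3g were all seen in 31 (51.7%) and 257 (55.0%) cells, and Trac with a Trbc gene in 35 (58.3%) and 260 (55.7%).

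Detection followed depth. T-like cells with 1000 to 3000 UMIs held a median of 5 of the genes in the AptCD4-LNT library and 6 in the Untreated library, and those with 3000 or more held 8 in both. After each cell was thinned at random to 1000 UMIs, which left out 1 and 137 shallower cells, a CD3 chain with a receptor constant chain was seen in 40 of 59 cells (67.8%, 54.4 to 79.4) and 277 of 330 cells (83.9%, 79.5 to 87.7). Over 50 such draws of the same cells the AptCD4-LNT shares ranged from 57.6% to 74.6% and the Untreated shares from 80.9% to 88.8%. Among the cells kept at 1000 UMIs, the share was thus lower in the AptCD4-LNT library in every draw. When the 6 AptCD4-LNT cells with a UMI of Ncr1, an NK cell receptor gene, were left out, it was 40 of 53 cells (75.5%, 61.7 to 86.2). This choice was made after the data were seen, and the draws, from 64.2% to 81.1%, reach the Untreated range. Of the 137 Untreated cells left out as shallow, 62.0% held such a pair unthinned. At 500 UMIs, with no cell left out, the pair was seen in 50% (36.8 to 63.2) and 57.0% (52.3 to 61.5) of T-like cells, with overlapping intervals.

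**Figure D2:**
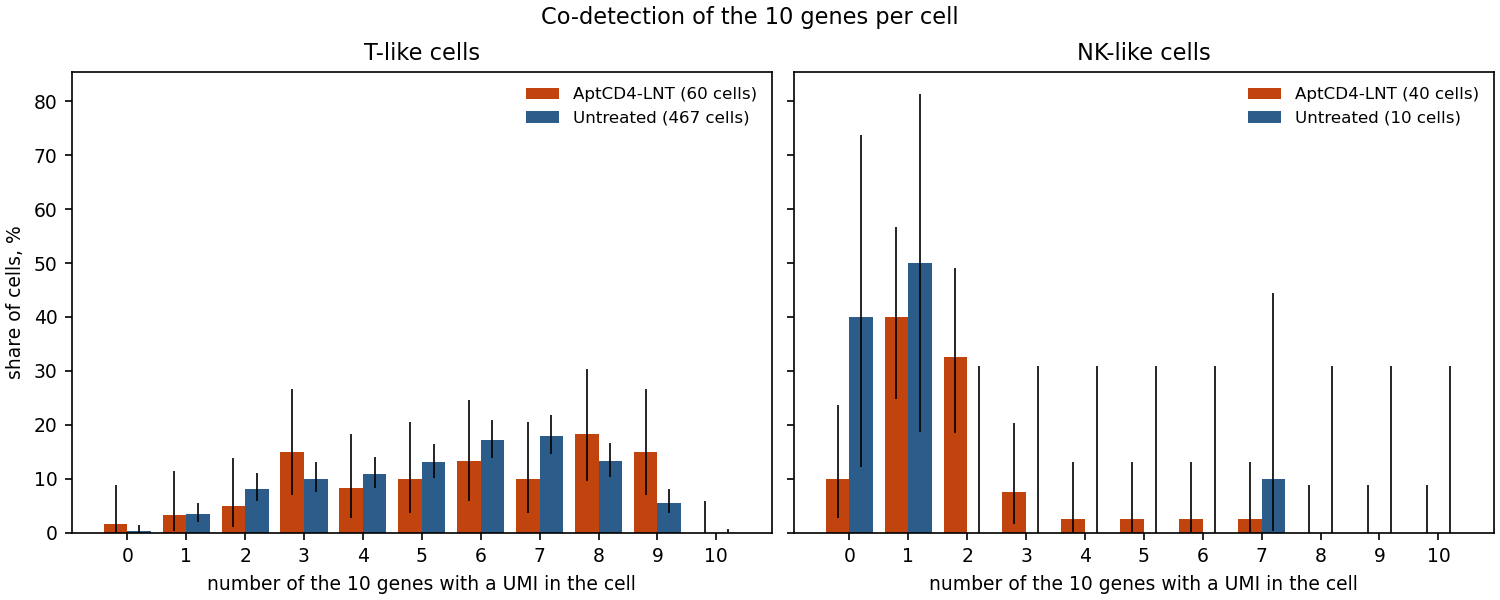
Share of cells (percent) with 0 to 10 of the genes detected, in T-like cells (left) and NK-like cells (right) of the AptCD4-LNT and Untreated libraries, with exact 95% intervals for counting error. T-like cells spread around a median of 6 genes in both libraries, whereas most NK-like cells held 0 to 2.

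The CD3 chains were detected together with each other and with Trbc2. Of T-like cells with Cd3e, 38 of 44 (86.4%) in the AptCD4-LNT library and 330 of 361 (91.4%) in the Untreated library also held Cd3g, against 9 of 16 and 84 of 106 of those without Cd3e. Of cells with Cd3e, 88.6% and 78.1% held Trbc2. Of cells with Trac, 33 of 35 and 240 of 294 held Trbc2. The zeta chain Cd247 was seen less often than the other CD3 genes, in 27 of 60 (45%, 32.1 to 58.4) and 115 of 467 cells (24.6%, 20.8 to 28.8). At 1000 UMIs per cell Cd247 was seen in 9 of 59 (15.3%, 7.22 to 27.0) and 50 of 330 cells (15.2%, 11.5 to 19.5), with overlapping intervals.

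T-like cells formed 5 sub-clusters, and the libraries filled them unevenly. Sub-cluster L2, led by Ccl5, Ms4a4b and Cd28, held 28 AptCD4-LNT and 180 Untreated cells. L4, led by granzymes and perforin, held 10 and 26, L6, led by Gzmb and Gzma, 10 and 80, L7, led by Tnfrsf4, Ctla4 and Icos, 10 and 47, and L8, led by Gzma and Nkg7, 2 and 134. L4 and L8 had Prf1, an NK marker of the fixed list, among their 10 leading genes and no fixed T marker, so sub-clusters are compared by number first and the pooled class second.

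In L2, where the most AptCD4-LNT T-like cells lay, the libraries had similar levels of most of the genes. Together the 10 genes stood at 7189 CPM in the AptCD4-LNT and 7395 CPM in the Untreated library, a ratio of 0.972 (0.873 to 1.08) of AptCD4-LNT over Untreated. Cd3g stood at 1996 and 1890 CPM, Trac at 499 and 681 CPM, and Cd8a at 452 and 438 CPM. Cd247 was the exception, at 343 and 142.5 CPM (22 and 27 UMIs), a ratio of 2.41 (1.31 to 4.39). None of the 9 genes with at least 20 UMIs was past 1.5-fold lower, with 16.6% of 2155 genes of L2 past it, and 1, Cd247, was past 1.5-fold higher, with 15.5% of genes past it.

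In the granzyme-led sub-clusters L4 and L6, AptCD4-LNT cells had less of the 10 genes summed, though more Trbc1, and cells with an NK marker lay among them. In L4 the 10 genes stood at 4286 and 8103 CPM, a ratio of 0.529 (0.478 to 0.586), and in L6 at 4511 and 6830 CPM, 0.661 (0.590 to 0.737). Trbc1 stood at 813 and 341 CPM in L4 and at 723 and 396 CPM in L6. Ncr1 had 105 UMIs in 6 AptCD4-LNT T-like cells, 4 in L4 and 2 in L6, and 0 UMIs in the 467 Untreated T-like cells, which by 3 counts of the total allows up to 0.642% of cells with a UMI, at a median depth of 1576 UMIs. The 6 cells held 32.4% of all UMIs of AptCD4-LNT T-like cells but 152 of their 1577 UMIs of the 10 genes. All 6 had a UMI of a Trbc gene, none had Trac, and 1 cell held all of their 31 Cd3g and 18 Cd3d UMIs. Without them the ratio of the 10 genes was 0.933 (0.832 to 1.05) in L4 and 0.926 (0.827 to 1.03) in L6.

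Sub-cluster L7 also held less of the genes in AptCD4-LNT cells, with no Ncr1 cell in it. Its 10 AptCD4-LNT and 47 Untreated cells held the 10 genes at 4356 and 8534 CPM (81 and 727 UMIs), a ratio of 0.510 (0.401 to 0.643). Cd3g stood at 1452 and 2559 CPM there, a ratio of 0.567 (0.366 to 0.849), and Trbc2 at 484 and 1432 CPM, 0.338 (0.151 to 0.663). Cd4 stood at 323 and 340 CPM (6 and 29 UMIs), the highest Cd4 level of the 5 sub-clusters, with a ratio of 0.948 (0.322 to 2.32). In L8, which held 2 AptCD4-LNT cells, the 10 genes stood at 8949 and 8858 CPM, 1.01 (0.834 to 1.21).

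Over all T-like cells the 10 genes stood at 5163 CPM in the AptCD4-LNT and 7841 CPM in the Untreated library, a ratio of 0.658 (0.624 to 0.695), or -0.60 on the log2 scale. Without the 6 cells with Ncr1 the ratio was 0.880 (0.832 to 0.931), a log2 ratio of -0.18. Of the 10 genes, 6 were past 1.5-fold lower, with 11.5% of 7012 genes past it, and 1 was past 1.5-fold higher, with 17.4% of genes past it. The intervals of all 7 excluded 1, as did those of 3.29% of genes past the lower and 7% past the higher mark. Such intervals treat UMIs as independent and are too narrow where few cells hold many UMIs. The 5 deepest cells held 33.1% of the UMIs of AptCD4-LNT T-like cells and 6.39% of those of Untreated ones. The median log2 ratio was -0.64 over the 10 genes and 0.08 over all genes. Without the Ncr1 cells 2 of the 10 were lower and 2 higher, with 13.8% and 17.9% of 6765 genes past these marks, and the medians were -0.12 and 0.06. The 8 NK markers summed to 1169 CPM in AptCD4-LNT T-like cells, with 1 of 8 at 0. In Untreated ones they summed to 733 CPM, with 4 of 8 at 0, Ncr1 and Klrb1c among them. Prf1 alone, a leading gene of L4 and L8, held 150 of the 357 AptCD4-LNT and 625 of the 812 Untreated UMIs of these sums. Markers of other classes also differed in T-like cells, with the ILC2 list at 396 and 194 CPM, the fibroblast list at 344 and 189 CPM and the macrophage list at 81.9 and 422 CPM, and their part in the levels of the 10 genes was not tested.

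Among Cd3d, Cd3e and Cd3g, Cd3e had the ratio farthest from 1, with and without the Ncr1 cells. It had 168 and 1149 UMIs, or 550 and 1037 CPM, a ratio of 0.530 (0.448 to 0.624), and 0.785 (0.663 to 0.923) without the Ncr1 cells, which held none of its UMIs. Cd3g, the most abundant of the genes in UMIs, stood at 1529 and 2336 CPM, a ratio of 0.655 (0.592 to 0.723), and 0.904 (0.815 to 1.001) without them. Cd3d, the delta chain, stood at 573 and 809 CPM, a ratio of 0.709 (0.599 to 0.834), which moved to 0.940 (0.789 to 1.12). For these 3 genes the ratios lay nearer to 1 without the 6 cells. These cells were all of the AptCD4-LNT library and held the 10 genes at 1535 CPM, against 6903 CPM in its other T-like cells. Leaving them out therefore raises the summed ratio, and their part in the difference was not tested. Cd247 stood at 154 and 133 CPM, a ratio of 1.16 (0.817 to 1.62), and 1.53 (1.06 to 2.17) without them.

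**Figure D3:**
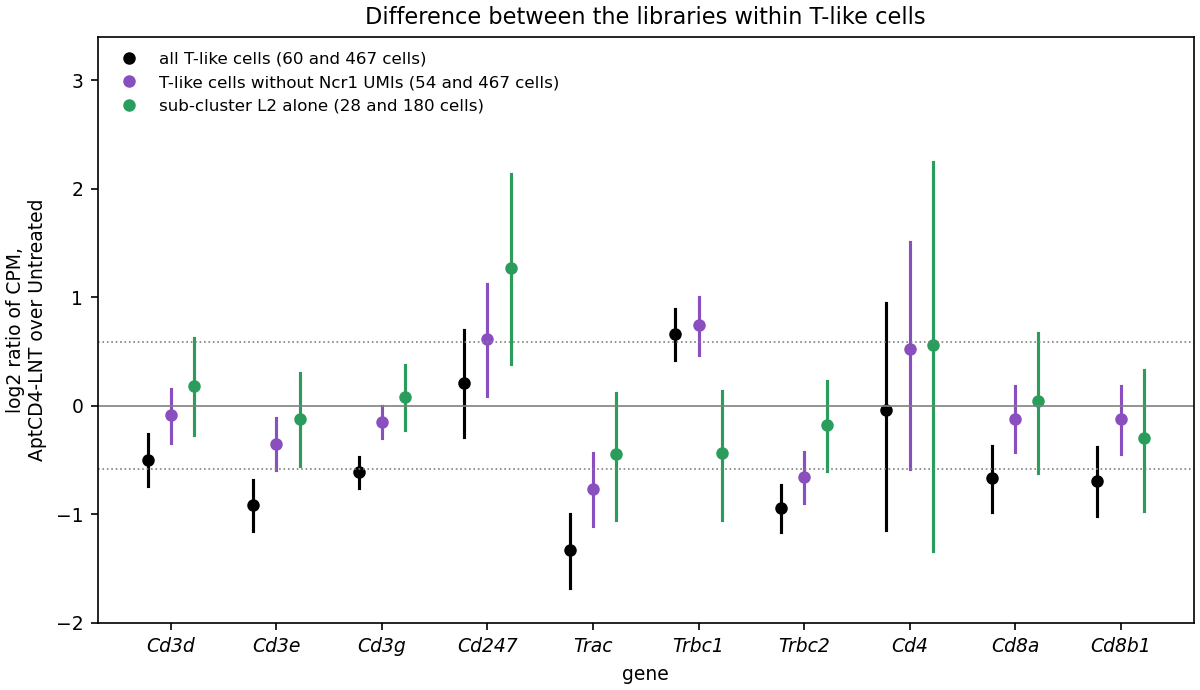
Log2 ratio of CPM, AptCD4-LNT over Untreated, for each of the 10 genes in all T-like cells, in T-like cells without Ncr1 UMIs and in sub-cluster L2 alone, with exact 95% intervals for counting error and dotted lines at 1.5-fold. Without the 6 Ncr1 cells most of the genes lie nearer to 0, while Trac and Trbc2 stay below it and Trbc1 above it, and in L2 the Trbc1 value lies below 0.

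The receptor constant chains kept a difference without the Ncr1 cells. Trac had 82 and 747 UMIs in T-like cells, 268.5 and 674 CPM, a ratio of 0.398 (0.313 to 0.501), and 0.589 (0.463 to 0.741) without these cells. Trbc2 stood at 665 and 1281 CPM, a ratio of 0.519 (0.446 to 0.602), and 0.636 (0.538 to 0.746) without them. Trbc1 went the other way, at 710 and 449.5 CPM, a ratio of 1.58 (1.34 to 1.86), and 1.67 (1.39 to 2.004) without them. Of its 217 UMIs in AptCD4-LNT T-like cells, 1 cell held 33 and another 21, so its interval is too narrow. The direction of Trbc1 was not shared by L2, where its ratio was 0.739 (0.481 to 1.10), nor was that of Trac or Trbc2 beyond counting error there (0.733, 0.481 to 1.09, and 0.885, 0.660 to 1.17).

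The balance of the beta chain copies differed between the libraries. Trbc1 held 217 of 420 Trbc UMIs (51.7%, 46.8 to 56.5) in AptCD4-LNT T-like cells and 498 of 1917 (26.0%, 24.0 to 28.0) in Untreated ones, and 48.0% (42.4 to 53.6) of the former without the Ncr1 cells. By sub-cluster the shares were 32.3% and 36.4% in L2, 60.1% and 21.5% in L4, and 52.2% and 25.8% in L6. Without Ncr1 cells they were 58.5% in the 6 remaining AptCD4-LNT cells of L4 and 49.5% in the 8 of L6. A T cell uses 1 of the copies in its rearranged beta chain, and of T-like cells with 5 or more Trbc UMIs, 5 of 27 and 75 of 151 had at least 90% of them from 1 copy. The intervals treat UMIs as independent, whereas UMIs of 1 cell share its receptor, so they are too narrow for this share.

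CD8 was the coreceptor more often detected in both libraries, and no T-like cell held both Cd4 and a CD8 gene. A CD8 gene without Cd4 was seen in 30 of 60 AptCD4-LNT cells (50%, 36.8 to 63.2) and 316 of 467 Untreated cells (67.7%, 63.2 to 71.9). Cd4 without CD8 was seen in 8 (13.3%, 5.94 to 24.6) and 26 cells (5.57%, 3.67 to 8.05), and neither in 22 (36.7%) and 125 (26.8%). At 1000 UMIs per cell the shares with CD8 without Cd4 were 20 of 59 (33.9%, 22.1 to 47.4) and 200 of 330 (60.6%, 55.1 to 65.9), and 20 of 53 (37.7%, 24.8 to 52.1) without the Ncr1 cells. The Cd4 shares at that depth were 5 of 59 (8.47%, 2.81 to 18.7) and 16 of 330 (4.85%, 2.80 to 7.75), with overlapping intervals. At 1000 UMIs CD8 was thus seen in a smaller share of AptCD4-LNT T-like cells. That comparison counted in L8, a sub-cluster in which 134 Untreated and 2 AptCD4-LNT cells lay. It left out 137 Untreated cells and 1 AptCD4-LNT cell below that depth. At 500 UMIs, with no cell left out, the CD8 shares were 25% (14.7 to 37.9) and 34.1% (29.8 to 38.5), with overlapping intervals. In L2 alone, unthinned, they were 46.4% and 51.7%. In the class summed, Cd4 stood at 36.0 and 37.0 CPM, a ratio of 0.973 (0.451 to 1.93). The Cd4 level of T-like cells was thus not distinguishable between the libraries at 11 and 41 UMIs, and 11 UMIs leave a wide interval.

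The CD8 chains were detected as a pair. Cd8a and Cd8b1 were seen together in 24 and 176 T-like cells, Cd8a alone in 4 and 69, and Cd8b1 alone in 2 and 71. Their levels were 354 and 562 CPM for Cd8a, a ratio of 0.629 (0.508 to 0.773), and 324 and 523.5 CPM for Cd8b1, 0.619 (0.495 to 0.767). Without the Ncr1 cells, which held 1 Cd8a UMI, the ratios were 0.922 (0.744 to 1.13) and 0.916 (0.733 to 1.14), so neither gene then differed beyond counting error. In L7 both had 0 UMIs in the 10 AptCD4-LNT cells against 20 each in the 47 Untreated cells, at least 1.46-fold lower against a floor of 3 counts in the sub-cluster.

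Cd4-positive and CD8-positive cells carried different lineage genes. The Cd4 cells lay in L2 (5 and 10) and L7 (3 and 15), with 1 in L8. Foxp3, the transcription factor of regulatory T cells, was seen in 1 of 8 and 4 of 26 Cd4 cells and in 0 of 30 and 0 of 316 CD8 cells. Tnfrsf4, a costimulatory receptor, was seen in 3 of 8 and 14 of 26 Cd4 cells and in 1 of 30 and 35 of 316 CD8 cells. Runx3, a transcription factor of the CD8 lineage, was seen in 26 of 30 and 195 of 316 CD8 cells and in 1 of 8 and 4 of 26 Cd4 cells. Nkg7, a cytotoxic granule gene, was seen in 27 of 30 and 270 of 316 CD8 cells, against 0 of 8 and 7 of 26 Cd4 cells. Zbtb7b and Cd40lg, of the CD4 lineage list, had 0 UMIs in the Cd4 cells of both libraries. Zbtb7b went the other way, with 2 UMIs in 1 of 30 and 6 UMIs in 6 of 316 CD8 cells. Cells with neither coreceptor held genes of both lists. Among them Foxp3 was seen in 4 of 22 and 3 of 125, and Tnfrsf4 in 10 of 22 and 19 of 125. Runx3 was seen in 11 of 22 and 31 of 125, and Nkg7 in 7 of 22 and 58 of 125. The coreceptor shares are thus shares of cells with a counted UMI and not of lineages. The CD8 cells were deeper, at medians of 4726 and 2248 UMIs, against 1378 and 1158 in the Cd4 cells. The part of depth in these shares was not tested.

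In NK-like and gamma-delta T-like cells the genes showed other combinations. NK-like cells held both Trbc genes with little Trac. In the AptCD4-LNT library Trbc1 had 56 UMIs in 27 of 40 cells (530 CPM), Trbc2 51 in 15 (483 CPM) and Trac 2 in 1 (18.9 CPM). Cd247 was seen in 10 of these cells, and Cd3g, Cd3d and Cd3e had 32, 12 and 8 UMIs. A CD3 chain, Cd247 included, was seen with a receptor constant chain in 13 of the 40. In the 10 Untreated NK-like cells the counts were 8, 1 and 2 UMIs for Trbc1, Trbc2 and Trac. For Cd3g, Cd3d and Cd3e they were 4, 1 and 3 UMIs, and 1 of the 10 cells held a CD3 chain with a receptor constant chain. The 6 Ncr1 cells in L4 and L6 held 62 Trbc1, 35 Trbc2 and 0 Trac UMIs. Gamma-delta T-like cells held the CD3 genes, with Cd3g at 2241 and 4172 CPM, 3 and 0 Trac UMIs and no coreceptor UMI, in 10 and 6 cells. This class was named in part from constant genes of the gamma and delta chains, so their presence there is no separate support. Such constant genes were seen in 9 of 10 and 6 of 6 of these cells. They were also seen in 13 of 40 and 1 of 10 NK-like cells and in 14 of 60 and 59 of 467 T-like cells. In T-like cells Trgc2 held 13 of 24 and 75 of 78 UMIs of these constant genes.

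Genes that act in signalling downstream of the receptor passed the 1.5-fold mark in both directions. Of 40 such genes found in the files, 38 had at least 20 UMIs in T-like cells, 3 were past 1.5-fold lower and 4 past 1.5-fold higher, where 11.5% and 17.4% of all genes were, with a median log2 ratio of -0.06 against 0.08 over all genes. Themis, a regulator of receptor signalling that was also a T marker, stood at 105 and 174 CPM, a ratio of 0.601 (0.4002 to 0.878). Txk, a Tec-family kinase, stood at 206 and 114 CPM, 1.81 (1.32 to 2.47). Rasgrp1, which activates Ras downstream of the receptor, stood at 128 and 84.8 CPM, 1.51 (1.01 to 2.21). The remaining genes past 1.5-fold had intervals that include 1. Without the Ncr1 cells 2 were lower and 8 higher, where 13.8% and 17.9% of all genes were, with a median log2 ratio of 0.15 against 0.06 over all genes.

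Outside the lymphoid clusters, UMIs of the 10 genes were few and mostly alone. At least 1 such UMI was seen in 459 of 8499 AptCD4-LNT cells (5.40%, 4.93 to 5.90) and 716 of 17645 Untreated cells (4.06%, 3.77 to 4.36). A single UMI was all that 65.6% (61.0 to 69.9) and 79.3% (76.2 to 82.2) of these cells held. A second of the 10 genes was present in 25 and 53, and a CD3 chain with a receptor constant chain in 12 and 24. The positive cells were deep, at a median of 18020 and 8283 UMIs, against 8933 and 4631 in all cells outside the lymphoid clusters. Of the called doublets, which were left out, 17 of 200 and 288 of 1785 held a UMI of the genes, and the part of uncalled doublets in the counts above was not tested.

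By class, 14.3% and 8.20% of fibroblast-like cells held a UMI, 11.8% and 9.38% of pericyte-like cells, 6.93% and 5.44% of epithelial-like cells, 2.21% and 1.87% of macrophage-like cells, 1.83% and 1.94% of neutrophil-like cells, and 1.08% and 1.07% of monocyte-like cells. Median depths of these classes ranged from 1352 to 17620 UMIs in the AptCD4-LNT and from 810 to 7583 in the Untreated library, with neutrophil-like cells the shallowest and epithelial-like cells the deepest in both. The monocyte-like shares were the lowest among these 6 classes, and the part of depth in the order of the classes was not tested.

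**Figure D4:**
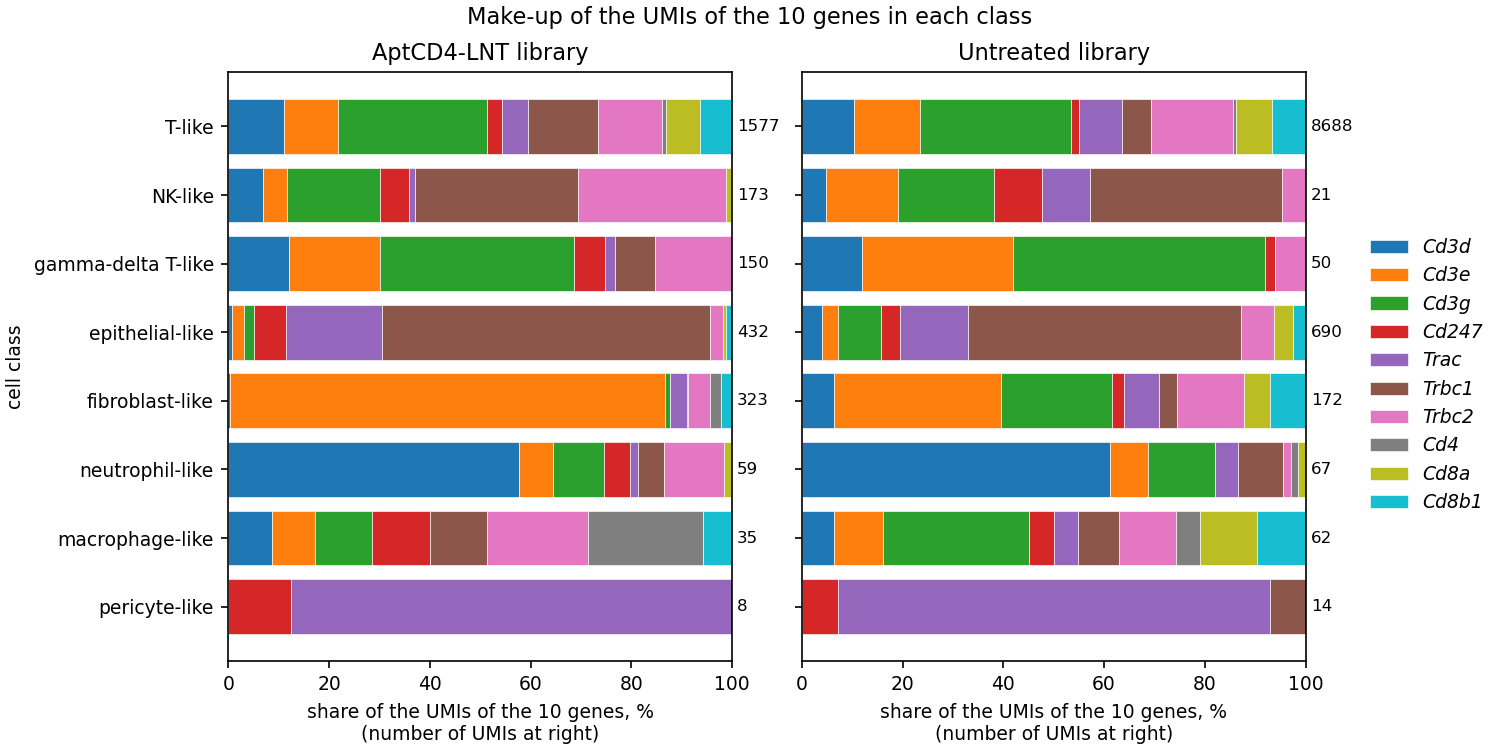
Share (percent) of each of the 10 genes among their summed UMIs in each cell class, for both libraries, with the number of UMIs at the right. Trbc1 makes up 65.0% and 54.2% of the UMIs in epithelial-like cells but 13.8% and 5.73% in T-like cells, and Cd3e, Cd3d and Trac take the largest share in fibroblast-like, neutrophil-like and pericyte-like cells.

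In fibroblast-like cells the gene was Cd3e, and in 1 cluster above all. In cluster 4, led by Ptx3, Sfrp2, Dpt and Pi16, Cd3e had 259 UMIs in 92 of 666 AptCD4-LNT cells and 57 UMIs in 24 of 320 Untreated cells, or 32.6 and 25.5 CPM. The level in this cluster did not differ beyond counting error, with a ratio of 1.28 (0.956 to 1.73). Many of the positive cells held several UMIs: 60 of 92 and 9 of 24 held at least 2, 13 and 4 held at least 5, and the highest held 15 and 9. Of these cells 89 and 21 had no UMI of the 13 T markers, and 3 and 5 held another of the 10 genes.

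The neighbouring CD3 genes did not follow Cd3e there. In the AptCD4-LNT cells of cluster 4, Cd3g had 2 UMIs and Cd3d 1, where T-like cells held 467, 175 and 168 UMIs of Cd3g, Cd3d and Cd3e. In the Untreated cells Cd3g had 36 UMIs and Cd3d 10, in 9 and 4 cells, and 10 cells there held a CD3 chain with a receptor constant chain. The make-up of the AptCD4-LNT cells was therefore unlike that of T cells in the same library, while the Untreated cells included some with several T cell genes. Ube4a, a ubiquitin ligase gene beside Cd3g, stood at 26.0 and 21.5 CPM, and Mpzl2, an adhesion gene near Cd3e, at 2.26 and 3.58 CPM. The Ube4a level was not particular to cluster 4. It was 23.8 and 21.9 CPM in epithelial-like cluster 0, where Cd3e had 3 and 6 UMIs and Mpzl2 stood at 30.3 and 24.95 CPM. In the other fibroblast-like cluster, number 17, led by Tagln, Grem1 and Crabp1, Cd3e had 20 UMIs in 4 of 186 AptCD4-LNT cells and 0 in 412 Untreated cells.

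**Figure D5:**
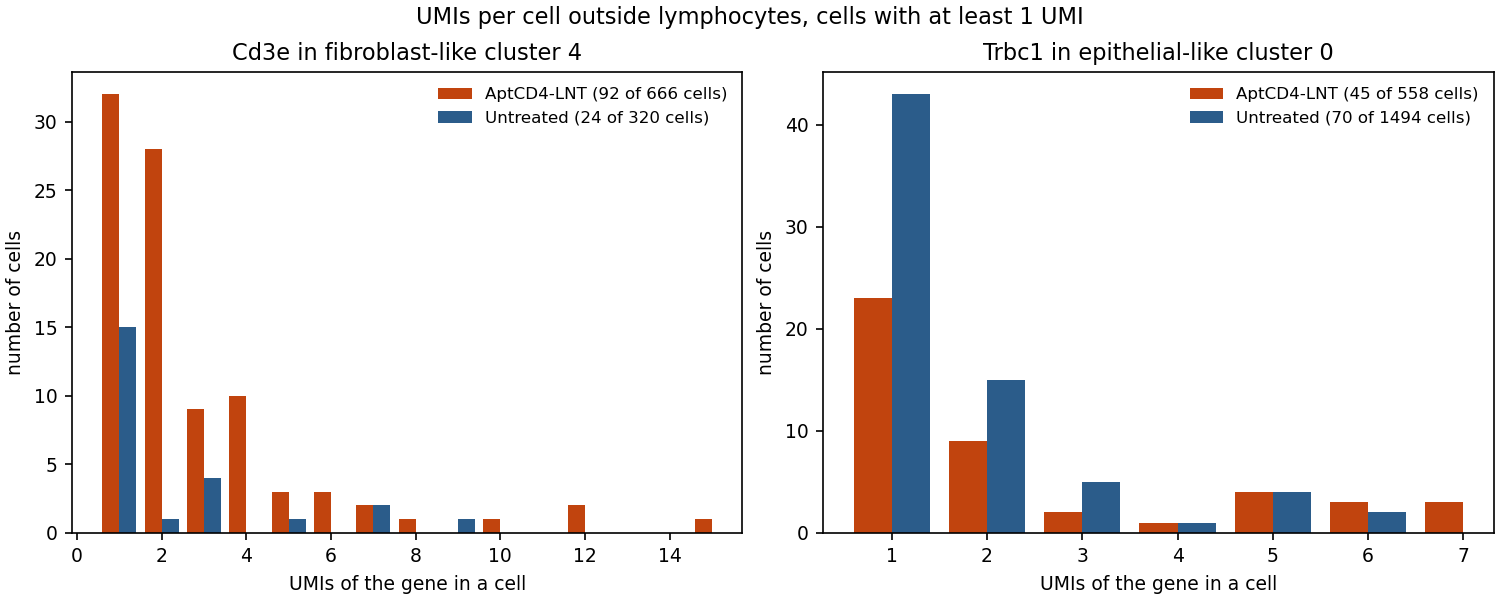
Number of cells by UMIs of the gene per cell, for Cd3e in fibroblast-like cluster 4 (left) and Trbc1 in epithelial-like cluster 0 (right), cells with at least 1 UMI, in both libraries. Cd3e reaches 15 UMIs in a cell and most AptCD4-LNT cells with it hold at least 2, and Trbc1 reaches 7 and 6 UMIs.

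In epithelial-like cells, named from markers that 4T1 cells are known for, such as Epcam and keratins, the gene was Trbc1. It had 281 UMIs in 128 of 3723 AptCD4-LNT cells and 374 UMIs in 228 of 8726 Untreated cells, or 3.96 and 4.58 CPM, a ratio of 0.866 (0.739 to 1.01). At least 2 UMIs were held by 56 and 73 of these cells, and the highest held 13 and 11. Another of the 10 genes was present in 11 and 13. Trbc1 took 281 of 292 Trbc UMIs (96.2%, 93.4 to 98.1) and 374 of 420 (89.1%, 85.7 to 91.9), against 51.7% and 26.0% in T-like cells of the same libraries. Trbc1 was uneven over the epithelial-like clusters. It stood at 7.22 and 6.15 CPM in cluster 0, led by the mitotic genes Cenpf and Ube2c, in 45 of 558 and 70 of 1494 cells, and at 7.50 and 5.94 CPM in cluster 8, led by Mmp13 and Cxcl5. In cluster 13, led by Espn and Ndrg1, it stood at 1.21 and 0.492 CPM, with 6 and 7 UMIs.

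Trac was the next most frequent in epithelial-like cells, mostly as single UMIs. It had 83 UMIs in 78 AptCD4-LNT and 92 UMIs in 87 Untreated epithelial-like cells, 1.17 and 1.13 CPM, of which 74 and 83 cells held 1 UMI. In pericyte-like cells Trac had 7 UMIs in 5 of 51 and 12 UMIs in 7 of 96 cells, 16.3 and 25.2 CPM, and none of the other genes had more than 1 UMI there. In neutrophil-like cells the gene was Cd3d, with 34 UMIs in 29 of 2132 cells and 41 UMIs in 37 of 2985 cells. Its level was highest in cluster 14, led by the granule genes Ngp, Camp and Ltf, at 66.0 CPM (10 UMIs) and 49.9 CPM (17 UMIs). No other gene of the list had more than 9 UMIs in the neutrophil-like cells of either library.

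Cd4 and the CD8 genes in myeloid cells were rare. Cd4 had 8 and 3 UMIs in macrophage-like cells and 4 and 1 in monocyte-like cells, of 860 and 2674 and of 556 and 933 cells. In the dendritic-like cluster of the AptCD4-LNT library the coreceptor UMIs lay in cells with markers of plasmacytoid dendritic cells, interferon-producing cells that can carry CD4. Of the 7 AptCD4-LNT cells with at least 2 of these markers, 6 held a coreceptor gene. Cd4 had 8 UMIs in 5 of these cells, Cd8a 2 in 2, and Cd8b1 10 in 2, of which 1 cell held 9. Of the 97 others none held a coreceptor gene, which by 3 counts of the total allows up to 3.09% of cells with a UMI. In the Untreated library 1 of 8 such cells and 2 of 202 others held a coreceptor UMI, at a median depth of 1366 UMIs against 4924 in the AptCD4-LNT cells.

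Across the 21 class-by-library profiles of at least 50 cells, the genes most like the 10 summed genes in log2(CPM + 1), among 15452 genes with at least 100 UMIs, were Bcl11b and Cd6 (Pearson r = 0.94 each), Klrc1, Cxcr6 and Gimap7 (0.93 each). For Cd8a they were Pdcd1 and Cd6 (0.99 each), Klrc1, Gm19585 and Gimap7 (0.98 each). For Cd4 they were Ctla4, Grap2, Stat4 and Cst7 (0.95 each) and Sla2 (0.94). The profiles share libraries and depth, 2 of them are T-like, and Bcl11b and Cd6 were also T markers, so these values are a description of where the genes were counted.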

How the data were processed

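Single-cell RNA of 2 libraries, AptCD4-LNT and Untreated, was analysed, each from the mixed tissue of 3 tumours. The deposited values are raw UMI counts per gene and barcode, made with Cell Ranger 7.2.0 against GRCm39 per the submitters' processing notes; whether cell calling removed doublets or free RNA is not given in the sources used here. Barcodes with fewer than 200 genes or over 20% mitochondrial UMIs were removed, and doublets were called with Scrublet's automatic threshold in scanpy 1.11.5, which marked 2.26% and 8.93% of barcodes. Counts were scaled per cell and log-transformed, and 2000 variable genes, with the 10 genes and 267 other receptor segments left out, gave 30 principal components (20 for lymphoid sub-clusters), 15 neighbours and Leiden clusters at resolution 1. Clusters were named from fixed markers by a score of at least 1 over at least 3 markers at 20 CPM; these thresholds were set after the clusters were seen, so a difference from the study's own cell types may come from these names.

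Levels are summed UMIs per 1000000 UMIs of the class (CPM). With 1 library per group no test was possible, and ratios carry exact conditional, and shares exact Clopper-Pearson, 95% intervals that cover counting error only and treat UMIs and cells as independent. A gene entered a count of genes past 1.5-fold if it had at least 20 UMIs in the class over both libraries. A count of 0 allows up to 3 counts. The named genes are the 10 genes, signalling genes past 1.5-fold whose interval excludes 1, and the 5 genes most alike in profile. The members and lists were chosen with earlier results of these data known. The interval and count steps were tested on simulated data. Alternatives were doublet calling, cell filters, clustering resolution, thinning, mean of cell CPM, a 2-fold mark and, chosen after seeing the data, leaving out sub-cluster L8, L2 alone and leaving out T-like cells with Ncr1.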

Additional observations from a re-analysis of the deposited data

Results flagged for a closer look

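Cd3e differed between the libraries in opposite directions in 2 cell classes. Its log2 ratio of CPM, AptCD4-LNT over Untreated, was -0.91 in T-like cells and 1.19 in fibroblast-like cells, with counting intervals on opposite sides of no difference. The difference between the classes was not tested, since each group is 1 library. In T-like cells without the 6 Ncr1 cells the log2 ratio was -0.35. In fibroblast-like cluster 4 alone, which held 259 of 279 and all 57 of the Cd3e UMIs of the class, it was 0.35 (-0.06 to 0.79). Cluster 4 made up 666 of 852 AptCD4-LNT and 320 of 732 Untreated fibroblast-like cells, and what part that share has in the pooled value was not tested.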

How the results depend on the processing

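No paired analysis was possible because each group is 1 library. Of 202 values under alternatives, 147 moved by less than their counting interval or stayed within 1.5 times, 55 moved further and 0 reversed; the causes were not tested. The log2 ratio of the 10 genes in T-like cells, -0.60, was -0.46 with doublets called at the expected rate, -0.36 with the stricter cell filter and -0.38 as the mean of the CPM of each cell. Among choices made after seeing the data it was -0.18 without Ncr1 cells and -0.041 in L2 alone. The 6 genes past 1.5-fold lower became 3 with doublets at the expected rate, 2 with the stricter filter, 2 by mean of cell CPM, 2 without Ncr1 cells, 0 in L2 and 1 at 2-fold. The 1 gene higher became 2 without Ncr1 cells, and 0 with doublets at the expected rate, the stricter filter, without L8 or at 2-fold. In L2 alone the count was again 1, but the gene was Cd247 in place of Trbc1. Signalling genes lower, 3, became 1 with the stricter filter, 5 without L8 and 1 at 2-fold, and those higher, 4, became 8 by mean of cell CPM, 8 without Ncr1 cells and 1 at 2-fold.

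The share of the UMIs of the 10 genes held by T-like cells was 49.5% (AptCD4-LNT) and 66.8% (Untreated) with doublets at the expected rate, 48.4% and 63.4% with the stricter filter, 67.0% (Untreated) at resolution 2 and 47.8% (AptCD4-LNT) without Ncr1 cells. The share of Untreated cells outside the lymphoid clusters with such a UMI was 4.50% with no doublets removed and 4.38% with the stricter filter. Any of the 10 genes was seen in 100% of Untreated T-like cells with the stricter filter or at 1000 UMIs, in 100% of AptCD4-LNT L2 cells, and in 88.3% and 95.9% at 500 UMIs. A CD3 chain with a receptor constant chain was seen in 67.8% (AptCD4-LNT) at 1000 UMIs, 50% and 57.0% at 500, 90.8% (Untreated) with the stricter filter, and 92.9% and 75% in L2. CD8 without Cd4 was seen in 33.9% and 60.6% at 1000 UMIs, 25% and 34.1% at 500, and in Untreated cells 75.7% with the stricter filter, 61.6% without L8 and 51.7% in L2. Neither coreceptor was seen in 57.6% and 34.5% at 1000 UMIs, 68.3% and 62.7% at 500, and in Untreated cells 18.3% with the stricter filter and 42.8% in L2. Cd4 without CD8 was seen in 3.21% of Untreated cells at 500 UMIs. Shares of cells with a UMI depend on depth, as the thinned values show.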
